A study of Mus musculus with 6 samples.

Results

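The Smoc2-Abcg2 cells described here are 756 of the 7555 Epcam-low and Krt7-low carcinoma-side cells, and of 14818 cells in all, from MOC-2 tumors. MOC-2 is a mouse line of head and neck squamous cell carcinoma that was grown under the skin of male mice until the tumors could be felt. The labels list 3 treated tumors and 3 vehicle tumors, all taken 24 h after injection into the tumor, and do not say which agents a treated tumor received. The agents listed for the study are R848, galunisertib, clodronate, epcadostat, L-NMMA, Nw-Hydroxy-nor-L-arginine, 4-1BB ligand, 5’ppp-dsRNA/Lyovec, 2'3'-c-di-AM(PS)2, 2-C1-IB-MECA and Copper(II) diethyldithiocarbamate, in DMSO or sterile water. Live cells of each tumor were sorted with a viability dye, marked with a multiplexing oligonucleotide tag and pooled for droplet 3' RNA sequencing. The deposited counts form 1 matrix in which each cell barcode carries a number from 1 to 6, and the cells of 1 number make up what is here named a barcode set. No label ties a barcode set to a tumor, so treated and vehicle tumors cannot be told apart and no comparison between them was made.

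The cells were chosen by a fixed filter and a score. The filter kept cells with at least 4000 UMIs (unique molecular identifiers, 1 for each captured RNA molecule) and under 15% mitochondrial counts. It also asked for at most 1 UMI of Ptprc and Tyrobp (immune genes) together, none of Pecam1 (endothelial), at most 1 of Epcam, Krt7 and Cldn7 (epithelial) together and at most 1 of Rgs5 (pericytes). Cells with 5 or more of 8 fibroblast-type matrix genes were left out. The 7555 cells that passed are called the base. Each was scored by the mean log1p of counts per 10000 of Smoc2, Abcg2, Col25a1, Megf10, Scube3 and Mamdc2, and the top 10% are the Smoc2-Abcg2 cells, also called members. The 6799 cells below them are the rest of the base.

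The 6 score genes encode proteins of the cell surface and of the matrix around cells. Smoc2 is a secreted calcium-binding matrix protein of the SPARC family and belongs to the gene set of intestinal stem cells. Abcg2 is a membrane pump that exports drugs and porphyrins, and its activity marks the dye-excluding side population of many tissues and tumors. Col25a1 is a collagen anchored in the cell membrane, Megf10 an engulfment receptor also found on muscle satellite cells, Scube3 a secreted EGF-repeat protein, and Mamdc2 a secreted protein with MAM domains. Squamous carcinoma lines of the mouse can hold keratin-poor, spindle-shaped cells with mesenchymal genes beside keratin-rich ones.

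The members sit at the end of a score that most base cells do not have. A score of 0 was found in 5165 base cells (68.4%), and 1634 cells of the rest scored above 0. The lowest member score was 0.2145 and the highest score outside was 0.2143, and 512 cells lay within 0.05 of this value, 176 of them members. Of the members, 214 had UMIs of 1 score gene, 294 of 2 genes, 133 of 3, 69 of 4, 33 of 5 and 13 of all 6. Smoc2 was the sole score gene in 158 of those 214 cells. At least 3 score genes were found in 248 members (32.8%) and in 21 cells of the rest. The class is cut from a per-cell score and is a range along it. A single UMI did not make a member, since that would need a cell of at most 3814 UMIs.

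The score genes had the following levels, which chose the members and are given as a description without a test. Levels are UMI counts of a gene scaled to 1000000 UMIs summed over a group of cells (CPM), with exact 95% Poisson intervals that cover counting error only. Smoc2 (chromosome 17, 14279506 to 14404790, mm10) stood at 242 CPM (232 to 253) in members, against 10.2 CPM (9.59 to 10.9) in the rest. In barcode sets 1 to 6 the Smoc2 level of members was 222, 306, 463, 220, 203 and 302 CPM, against 14.4, 10.8, 22.2, 10.1, 6.22 and 5.23 CPM in the rest. The ranges do not overlap, and set 3 was highest in both groups.

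Abcg2 (chromosome 6, 58584523 to 58695676) was at 92.1 CPM (85.9 to 98.7) in members and 6.73 CPM (6.21 to 7.29) in the rest. Its level in members of sets 1 to 6 was 49.9, 28.4, 15.7, 150, 117 and 11.8 CPM, against 7.86, 6.17, 15.9, 6.96, 5.47 and 4.88 CPM in the rest. Abcg2 thus differed more between the sets than Smoc2 did, and in set 3, with 21 members, it was not higher in members. Sets 4 and 5 held the highest values. At full depth 40.5% of members had an Abcg2 UMI and 73.5% a Smoc2 UMI, so a member need not hold both genes of the name.

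Col25a1 (chromosome 3, 130131501 to 130599877) stood at 54.8 CPM (50.0 to 59.8) in members and 0.996 CPM in the rest. Its values in members of the 6 sets lay close together, from 35.3 to 60.6 CPM. Megf10 was at 41.5 CPM (37.4 to 46.0) in members and 1.60 CPM in the rest, and at 15.7 to 61.5 CPM in members of single sets. Scube3 (chromosome 17, 28142141 to 28174854) was at 26.8 CPM in members and 0.876 CPM in the rest, with no UMI in the 17 members of set 6. Mamdc2 (chromosome 19, 23302609 to 23448442) was at 70.0 CPM in members and 5.69 CPM in the rest. Its level in members was 3.93 CPM in set 3 and 99.9 CPM in set 4, so Mamdc2, like Abcg2, was uneven between sets.

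**Figure D1:**
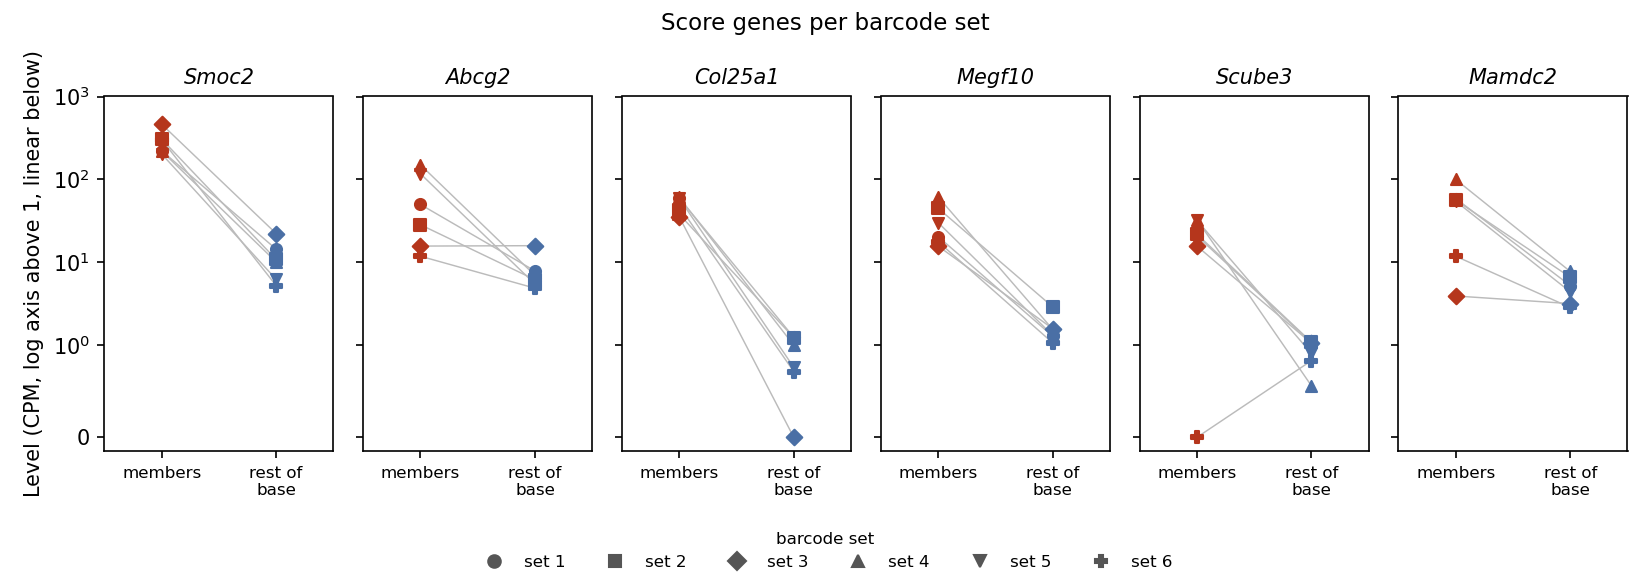
Levels of the 6 score genes (CPM, logarithmic above 1 and linear below) in members and in the rest of the base, 1 symbol per barcode set, with lines joining the values of 1 set. Smoc2 and Col25a1 are separated in every set, while Abcg2 is level in set 3 (15.7 CPM in members and 15.9 CPM in the rest) and Scube3 is at 0 in members of set 6.

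For comparison the score genes were measured in immune cells, and whether such cells express them was not tested. In 724 immune cells of the same matrix, with at least 5 UMIs of Ptprc and Tyrobp and a median of 7280 UMIs, Smoc2 was at 12.2 CPM (9.70 to 15.0) and Abcg2 at 7.15 CPM (5.30 to 9.42). After every cell was thinned to 4000 UMIs, a Smoc2 UMI was found in 53.2% of members, in 3.57% of the rest and in 3.32% of these immune cells (exact 95% binomial interval 2.14 to 4.89). For Abcg2 the shares were 24.2% in members, 2.27% in the rest and 2.76% in immune cells. The rule took the cells with the highest scores out of the rest, so its low shares are in part set by the rule, and neither expression nor its absence is read from them.

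Each score gene was also measured in cells chosen by the other 5, which takes it out of its own rule, although the 6 genes had been picked together with results of these cells known. Smoc2 was then at 116 CPM in the chosen 756 cells and 22.8 CPM in all other base cells, higher in 5 of 6 sets. Its chosen cells had 64.4, 143, 71.5, 140, 116 and 24.3 CPM in sets 1 to 6, against 28.6, 32.8, 74.9, 20.0, 12.7 and 10.8 CPM in the other base cells. Set 3 is the exception, with about equal values. The cells chosen without Smoc2 shared 488 cells (64.6%) with the members, while leaving out any other gene kept at least 649.

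The other score genes were also higher in cells chosen without them, some in fewer sets. Megf10 was at 30.9 CPM in its chosen cells, against 2.65 CPM in the other base cells, and was higher in all 6 sets. Col25a1 stood at 40.0 CPM in chosen cells and 2.36 CPM in the others, and Scube3 at 22.2 CPM in chosen cells and 1.34 CPM in the others, both higher in 5 of 6 sets. Their exception was set 6, in which neither gene had a UMI in chosen cells. Abcg2 stood at 64.9 CPM in chosen cells and 9.62 CPM in the others, and Mamdc2 at 43.2 CPM in chosen cells and 8.27 CPM in the others, each higher in 4 of 6 sets. In set 4 Abcg2 was at 127 CPM in chosen cells and 11.6 CPM in the others, and in set 6 at 0 CPM in chosen cells and 5.13 CPM in the others.

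With the cells of all sets pooled, a cell with 1 of the score genes had another more often than a cell without it. In cells thinned to 4000 UMIs, Abcg2 was detected in 11.2% of 645 cells with a Smoc2 UMI and in 3.84% of 6910 cells without one, higher in 4 of 6 sets. Col25a1 was detected in 10.2% of cells with Smoc2 and 1.66% of cells without, higher in all 6 sets. Smoc2 was found in 41.6% of 89 cells with a Scube3 UMI, against 8.14% of 7466 cells without. The smallest ratio among the 30 ordered pairs was for Mamdc2 and Scube3: Mamdc2 was found in 8.99% of cells with a Scube3 UMI and 4.19% of cells without, a ratio of 2.14. For this pair, and for Abcg2 and Mamdc2, the share was higher in 3 of 6 sets in either order. The pooled ratio was above 1 in all 30 pairs, though the cells share libraries and depth and no test was made. The 6 genes had also been picked together with results of these cells known, so such a direction was in part set beforehand.

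The label calls the cells mesenchymal and carcinoma. Xist, the noncoding RNA of the inactive X chromosome, was at 1158 CPM in members and 1074 CPM in the rest, although the host mice were male. The sum of Uty, Kdm5d, Ddx3y and Eif2s3y, which lie on the Y chromosome, was at 1.12 CPM in members and 1.39 CPM in the rest. In the immune cells above Xist was at 357 CPM. Set 3 departs from this, with Xist at 173 CPM in its 21 members and 787 CPM in its rest. Its Y-linked sum was 15.7 CPM in members and 9.53 CPM in the rest, the highest of the 6 sets in both groups. With cells that held a Y-linked UMI left out, 73 genes were called higher and 41 lower by the rule given further on, 52 and 33 of them shared with the main calls. Set 3 fell under the 20 members needed for use in that run. Loss of these cells and loss of set 3 were thus not told apart. In Xist, set 1 was lower in members too, at 758 CPM in members and 992 CPM in the rest.

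Of 22 mesenchymal and epithelial-mesenchymal transition genes, none was 2-fold apart, with summed levels of 8599 CPM in members and 8053 CPM in the rest. All 9 tested epithelial genes had medians below 0, with a list median of -0.25 on the log2 scale, and none was called. Cldn3, a tight junction claudin, had a median of -1.11 at 8.53 CPM in members and 12.7 CPM in the rest, with mixed signs over the sets. Krt8, a simple-epithelial keratin, was at 388 CPM in members and 436 CPM in the rest. The filter removed cells with Epcam, Krt7 or Cldn7, so a low epithelial level in both groups is in part set by it.

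Markers of other cell types were mostly low in both groups, with fibroblast and neural markers as exceptions. Summed macrophage and monocyte markers were at 20.4 CPM in members and 26.0 CPM in the rest, with medians per cell of 0 for all 10 genes. T and NK cell markers summed to 5.61 CPM in members and 5.72 CPM in the rest, and endothelial markers to 11.6 CPM in members and 12.9 CPM in the rest. Neutrophil markers summed to 7.07 CPM in members and 11.02 CPM in the rest. Klrb1c, Ncr1, Kdr, Cldn5, Emcn, Cpa3 and Sox10 had no UMI in members. Pericyte and smooth muscle markers summed to 77.4 CPM in members and 50.9 CPM in the rest, mostly Pdgfrb (41.2 CPM in members and 23.3 CPM in the rest). Fibroblast markers summed to 3030 CPM in members and 3427 CPM in the rest, and among them the collagen Col3a1 was at 1689 CPM in members and 1884 CPM in the rest. Dcn, the matrix proteoglycan decorin, was at 501 CPM in members and 656 CPM in the rest, with a UMI in 39.0% of members and 66.2% of the rest. Schwann and neural markers summed to 141 CPM in members and 264 CPM in the rest, mostly Gap43 and Ncam1. Osteoclast-like markers summed to 17.7 CPM in members and 17.2 CPM in the rest, skin keratinocyte markers to 21.6 CPM in members and 24.9 CPM in the rest, and dendritic and B cell markers to 9.65 CPM in members and 14.1 CPM in the rest. The part of these markers in the differences below was not tested.

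Pooled median depth was close in the 2 groups, while Malat1 was not. The median was 10502 UMIs and 3325 genes per cell in members, against 11618 UMIs and 3459 genes in the rest. In single sets it differed more: set 6 had medians of 7863 UMIs in members and 12466 in the rest. Set 1 had 9845 and 11452, while in set 5 members were deeper, at 12185 and 11811. The median mitochondrial share was 3.26% in members and 2.59% in the rest. Malat1, a nuclear noncoding RNA named after its values were seen, was at 24372 CPM in members and 14687 CPM in the rest and was higher in members of every set. A doublet score of at least 0.25 was reached by 7 members (0.926%) and 74 cells of the rest (1.09%). With cells of such doublet scores left out 65 genes were called higher and 46 lower by the rule given further on, and with cells under 10% mitochondrial counts 62 and 49, against 64 and 46 in all. The part of Malat1 in the differences was not tested.

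The share of the base that belonged to the members varied between barcode sets. In sets 1 to 6 the members made up 9.41%, 12.7%, 13.5%, 12.3%, 8.07% and 2.74% of base cells. In numbers these were 181, 148, 21, 264, 125 and 17 members of 1924, 1162, 155, 2143, 1550 and 621 base cells. Exact 95% binomial intervals ran from 8.59 to 20.0% in set 3 and from 1.60 to 4.35% in set 6. The interval of set 6 lies below those of the other 5 sets. Since no set can be given a treatment, these shares are values without a comparison.

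**Figure D2:**
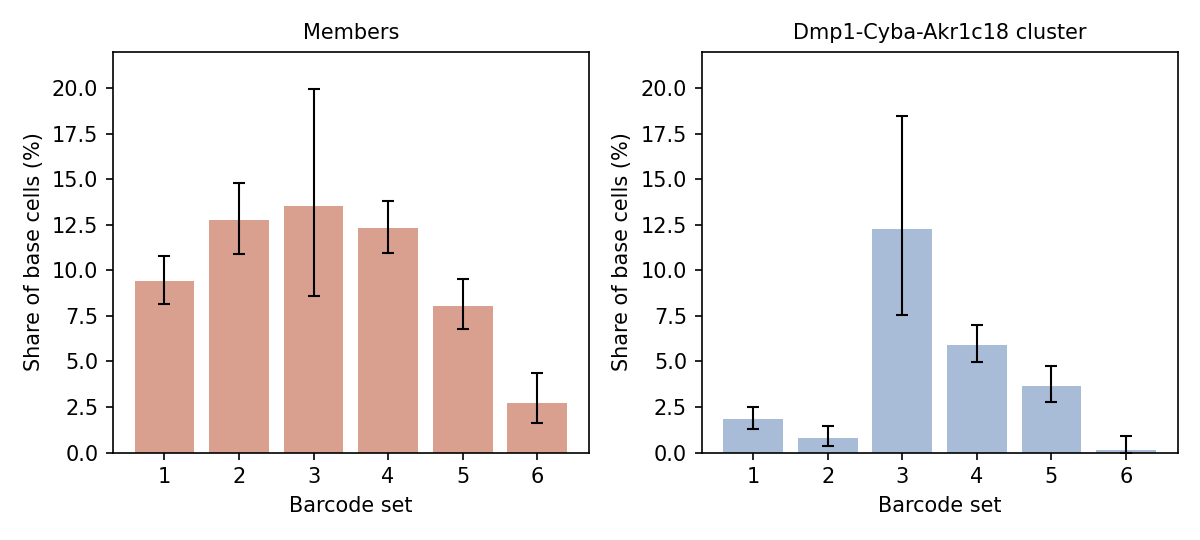
Share of base cells (%) in each barcode set that are members (left) or lie in the Dmp1-Cyba-Akr1c18 cluster (right), with exact 95% binomial intervals. Members range from 2.74% in set 6 to 13.5% in set 3, and the cluster from 0.161% in set 6 to 12.3% in set 3.

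Part of the members lay together when cells were grouped by genes that the rule did not use. The base was clustered on variable genes without the score and filter genes, which gave 16 clusters. One cluster of 248 cells held 195 members, 78.6% of its cells (73.0 to 83.6%). Its leading genes were Dmp1, Cyba and Akr1c18. Dmp1 is an acidic matrix protein of bone and dentin, Cyba a subunit of the NADPH oxidase, and Akr1c18 a hydroxysteroid dehydrogenase that inactivates progesterone. This cluster held 25.8% of all members and 134 of the 248 members with at least 3 score genes.

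A second cluster, led by Snap25, Pcp4l1 and Spint2, had 344 cells and 105 members (30.5%). The other 14 clusters together had 6963 cells, of which 6.55% were members, and single ones ranged from 2.94 to 16.2%. The lowest share was in a cluster led by Calcb, Calca and Tspan8. A cluster led by Ccl3, Ccl4 and Srgn had 90 cells and 8 members, and one led by Col1a2, Bgn and Col12a1 had 59 cells and 9 members. Whether the cells of these last clusters are carcinoma cells was not tested. Among the 15 nearest neighbours of a cell, members made up 39.5% on average for members and 5.52% for the rest. The mean was 64.8% for members with at least 3 score genes and 22.1% for members with 1. Members with several score genes thus had more members near them than members with 1, over genes outside the rule.

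**Figure D3:**
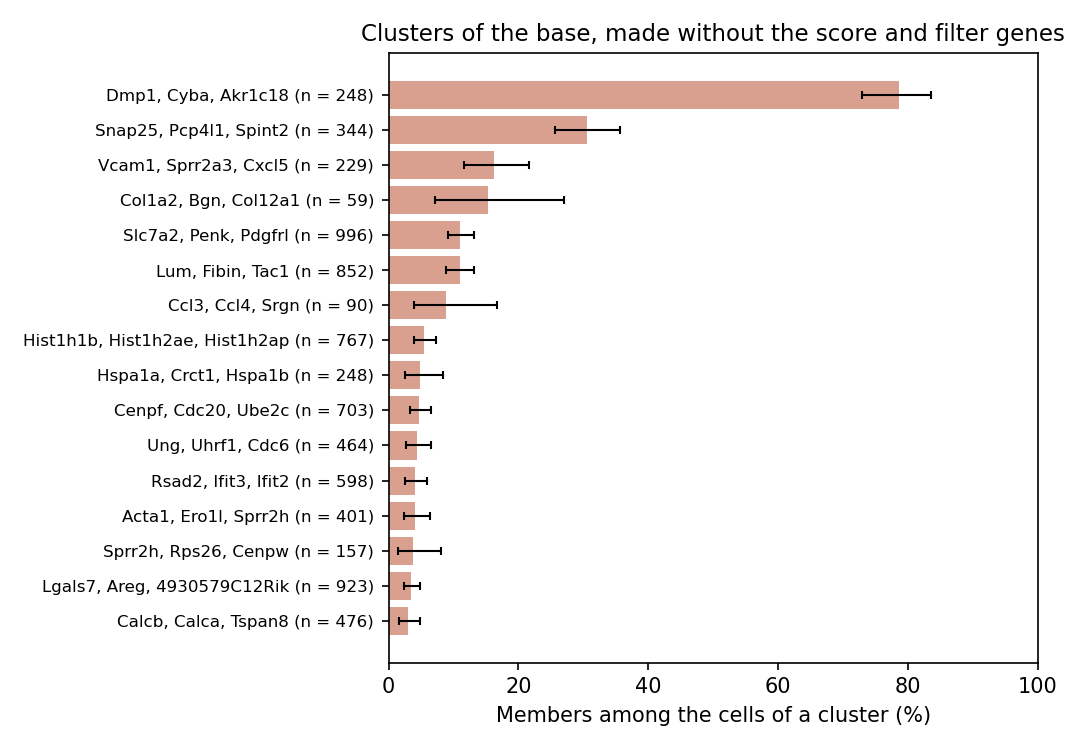
Share of members (%) among the cells of each of 16 clusters of the base, with exact 95% binomial intervals; clusters are named by their 3 leading genes and n is their number of cells. The cluster led by Dmp1, Cyba and Akr1c18 stands at 78.6%, the one led by Snap25, Pcp4l1 and Spint2 at 30.5%, and no other above 16.2%.

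Summed over sets, the Dmp1-Cyba-Akr1c18 cluster had all 6 score genes above the other base cells. Abcg2 was at 169 CPM in the cluster and 9.06 CPM in all other base cells. Smoc2 was at 183 CPM in the cluster and 25.7 CPM in the other cells, and Col25a1 at 83.2 CPM in the cluster and 3.15 CPM in the others. Megf10, Scube3 and Mamdc2 stood at 53.7, 43.4 and 71.7 CPM in the cluster, against 3.50, 1.82 and 9.36 CPM in the others. In single sets this did not always hold: Mamdc2 in set 3 was at 0 CPM in the cluster and 3.80 CPM in the others, and Smoc2 in set 1 was at 36.4 CPM in the cluster and 31.3 CPM in the others. Set 6 had 1 cell in the cluster, with no Abcg2 UMI, and set 4 had 127 of its 248 cells. Abcg2 and Smoc2 were not distributed alike over the members. Abcg2 was at 212 CPM in members of this cluster, 22.4 CPM in members of the Snap25-Pcp4l1 cluster and 51.2 CPM in members elsewhere. Smoc2 was at 234, 267 and 241 CPM in the same 3 groups.

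The cluster was not spread evenly over barcode sets. It took up 1.82%, 0.775%, 12.3%, 5.93%, 3.68% and 0.161% of the base in sets 1 to 6. It held 9.39%, 3.38%, 42.9%, 43.6%, 39.2% and 0% of the members of these sets. In every set most members thus lay in other clusters, and the part in this one was largest in sets 3, 4 and 5. Of these, sets 4 and 5 had the highest Abcg2 in members and set 3 did not (15.7 CPM). The Snap25-Pcp4l1 cluster held 63 of the 148 members of set 2.

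Genes outside the rule were then compared between members and the rest within each barcode set. The measure is log2 of the CPM in members plus 5 over the CPM in the rest plus 5, taken as the median over the 5 sets with at least 20 members. A gene is called higher or lower when the median is at least 1 in size, which is 2-fold, with the same sign in all 5 sets. Of 11073 genes at 2 CPM or more, 64 were called higher (0.578%) and 46 lower (0.415%), and the median over all genes was -0.00. There is no test behind these calls, because the members were chosen on the same cells.

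The number of calls rests partly on single sets, and it changed with the Dmp1-Cyba-Akr1c18 cluster left out. Without set 4 there were 40 higher calls, and without set 1 there were 87 lower calls. With the cluster left out of the base, 50 genes were called higher, 34 of them shared with the 64. In that run 16 were called lower, 15 of them shared with the 46. Set 3 had 12 members outside the cluster, too few for use. Medians and signs of that run thus came from sets 1, 2, 4 and 5. The medians of all 64 and all 46 kept their sign in it. Loss of the cluster and loss of set 3 were not told apart, here and wherever this run is cited. The folds understate the change of genes with low counts, since 5 CPM were added.

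The 15 genes with the largest median folds include Thbs1. It encodes thrombospondin 1, a matricellular protein that binds integrins and activates latent TGF-beta. Thbs1 (chromosome 2, 118111876 to 118127133) was at 3674 CPM (3634 to 3714) in members and 1063 CPM (1056 to 1070) in the rest. In sets 1 to 6 members had 2993, 4112, 2685, 4308, 3221 and 906 CPM, against 1315, 1286, 834, 1106, 714 and 763 CPM in the rest. Members were above the rest in every set, and the groups overlapped only through set 6. The median log2 fold was 1.68, from 1.18 to 2.16 over the 5 sets.

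Cp, Sulf2 and Crh, which act outside the cell, were also among the 15. Cp (ceruloplasmin, a copper-carrying ferroxidase; chromosome 3, 19957054 to 20009145) was at 847 CPM in members and 292 CPM in the rest, with a log2 fold of 1.63. Cp in members of sets 1 to 6 was at 643, 883, 656, 909, 977 and 835 CPM, against 327, 301, 209, 287, 224 and 373 CPM in the rest. These ranges do not overlap. Sulf2, an extracellular enzyme that removes sulfate from heparan sulfate, was at 65.7 CPM in members and 16.3 CPM in the rest (log2 fold 1.62). Crh, the corticotropin-releasing hormone, was at 43.3 CPM in members and 8.75 CPM in the rest (1.47), with 60 of its 386 member UMIs in 1 cell of set 5.

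Abca1, Cyp26b1, Adh7 and Akr1c18 handle lipids, retinoids or steroids. Abca1, the cholesterol efflux pump, had the largest log2 fold, 1.90 (0.90 to 2.31 over the 5 sets). Abca1 (chromosome 4, 53030787 to 53159895) was at 12.96, 21.9, 39.3, 44.8, 36.0 and 0 CPM in members of sets 1 to 6, against 4.62, 5.16, 6.88, 5.08, 3.54 and 4.28 CPM in the rest. It was higher in 5 sets and had no UMI in the 17 members of set 6. Cyp26b1, which breaks down retinoic acid, was at 38.4 CPM in members and 7.53 CPM in the rest (1.79), and Adh7, a retinol and alcohol dehydrogenase, at 59.8 CPM in members and 12.3 CPM in the rest (1.62). Akr1c18 was at 88.2 CPM in members and 18.4 CPM in the rest (1.76).

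The remaining leading higher genes have other roles. Itgb5, an integrin subunit of a vitronectin receptor, was at 240 CPM in members and 88.2 CPM in the rest (1.49). Slc4a4, a sodium bicarbonate cotransporter, was at 75.9 CPM in members and 16.6 CPM in the rest (1.69), and higher in all 6 sets. Prdm1, a transcriptional repressor known from plasma cells, was at 44.4 CPM in members and 11.02 CPM in the rest (1.63). Cxcr6, the receptor of the chemokine CXCL16, was at 41.4 CPM in members and 11.1 CPM in the rest (1.48), with a log2 fold of 0.35 in set 3. Pcp4l1, a small calmodulin-binding protein, was at 52.9 CPM in members and 11.8 CPM in the rest (1.74), Cryaa, a small heat shock protein of the lens, at 45.7 CPM in members and 10.1 CPM in the rest (1.71), and Chchd10, a mitochondrial protein, at 61.7 CPM in members and 10.8 CPM in the rest (1.59).

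**Figure D4:**
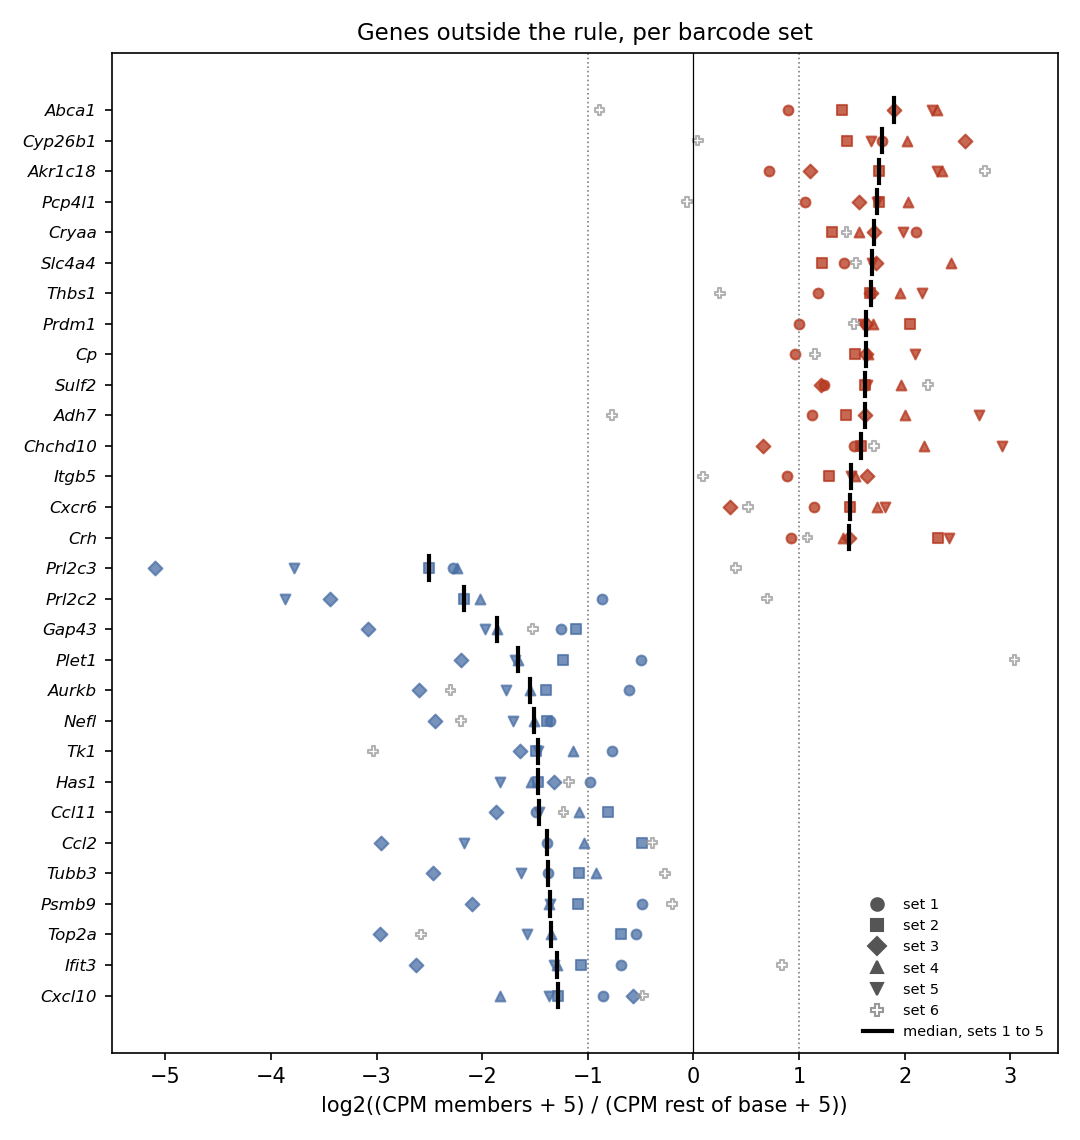
log2 fold of members over the rest of the base for the 15 genes called higher with the largest median and the 15 called lower with the lowest, 1 symbol per barcode set; black bars are medians over sets 1 to 5 and open crosses are set 6, which is not used. Abca1 leads at 1.90 and Prl2c3 is lowest at -2.50, and set 6 lies on the other side of 0 for Abca1, Pcp4l1, Adh7, Prl2c3, Prl2c2, Plet1 and Ifit3.

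The 15 genes with the lowest folds include the chemokines Ccl2, Ccl11 and Cxcl10. Ccl2, the chemokine that draws monocytes, was at 1102 CPM (1080 to 1124) in members and 2582 CPM (2571 to 2592) in the rest. In sets 1 to 6 Ccl2 was at 789, 1784, 177, 1110, 710 and 2848 CPM in members, against 2071, 2500, 1411, 2295, 3201 and 3742 CPM in the rest. Members were lower in every set, with a median log2 fold of -1.39 (-2.96 to -0.49). Ccl7, a related chemokine, was at 212 CPM in members and 498 CPM in the rest (-1.22), Ccl11, which draws eosinophils, at 12.1 CPM in members and 32.3 CPM in the rest (-1.46), and Cxcl10, an interferon-induced ligand of CXCR3, at 79.8 CPM in members and 234 CPM in the rest (-1.28). Without set 4 the medians were -0.90 for Ccl2, -0.80 for Ccl7 and -0.96 for Cxcl10, all under 2-fold. Members were chosen again there, and set 6 was used in place of set 4.

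Gap43, a growth cone protein that is also on the Schwann and neural marker list, was at 57.8 CPM in members and 183 CPM in the rest (-1.86) and was lower in all 6 sets. Nefl, a neurofilament, was at 5.27 CPM in members and 23.5 CPM in the rest (-1.51), and Tubb3, a neuronal tubulin, at 4.94 CPM in members and 19.2 CPM in the rest (-1.38). Has1, a hyaluronan synthase, was at 23.6 CPM in members and 75.03 CPM in the rest (-1.47, or -0.94 without set 4). Sox10, the defining Schwann cell factor, had no UMI in either group.

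The proliferins Prl2c3 and Prl2c2, prolactin-family hormones, had the lowest folds. Prl2c3 was at 26.9, 24.3, 3.93, 15.5, 12.2 and 426 CPM in members of sets 1 to 6, against 151, 160, 302, 91.9, 231 and 321 CPM in the rest. It was lower in 5 sets and higher in the 17 members of set 6, and Prl2c2 was the same (log2 fold -2.17). The genes are close copies, so how reads were split between them is uncertain. Plet1, a membrane-anchored epithelial and placental protein, was at 4.15 CPM in members and 11.8 CPM in the rest (-1.66), and also went the other way in set 6.

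Calls among cell division genes were all in the lower direction. Of 22 mitotic genes, 5 were called lower, against 0.415% of all genes, none higher, and all 22 had medians below 0, with a list median of -0.76, against -0.00 over all genes. The 5 were Top2a (DNA topoisomerase), Ube2c and Cdc20 (anaphase-promoting complex), Birc5 and Aurkb (chromosomal passenger complex). Top2a was at 154, 165, 19.6, 98.0, 70.0 and 23.7 CPM in members of sets 1 to 6, against 226, 269, 189, 258, 219 and 167 CPM in the rest. The 2 ranges do not overlap. The summed mitotic list was at 744 CPM in members and 1437 CPM in the rest, and lower in all 6 sets.

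All 22 S-phase genes also had medians below 0, with a list median of -0.56, though none was called. Mcm5, a subunit of the replicative helicase, was at 12.6 CPM in members and 27.2 CPM in the rest (-0.90), and Uhrf1, which maintains DNA methylation, at 22.1 CPM in members and 41.4 CPM in the rest (-0.92). Tk1, the thymidine kinase, is on neither list and was at 16.6 CPM in members and 42.9 CPM in the rest (-1.47). The clusters led by Hist1h1b, by Cenpf and by Ung, all of which had cell division genes in the lead, held 5.48%, 4.69% and 4.31% members. With these 3 clusters left out of the base, an alternative added after the data were seen, 58 genes were called higher and 45 lower. Of these, 44 and 32 were shared with the main calls, and Aurkb (-0.57) and Top2a (-0.74) were under 2-fold. Set 3 had under 20 members left in that run and was not used. With the Dmp1-Cyba-Akr1c18 cluster left out, which also took set 3 out of use, Top2a (-0.70), Ube2c (-0.68), Birc5 (-0.99) and Tk1 (-0.78) were under 2-fold. Of 17 tested cell-cycle arrest and p53 target genes none was called (median 0.13).

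Calls among interferon-stimulated and antigen presentation genes were all in the lower direction. Of 20 tested type I interferon-stimulated genes, 4 were called lower (Ifit1, Ifit3, Rsad2 and Cmpk2), against 0.415% of all genes, none higher, and all 20 had medians below 0, with a list median of -0.67. Many genes of this list restrict viruses. Their summed level in members of sets 1 to 6 was 688, 607, 173, 1554, 2281 and 4014 CPM, against 819, 914, 763, 2116, 3446 and 2780 CPM in the rest. The levels differed more between sets than between members and the rest, and set 6 went the other way. These calls are not firm: without set 4 the median of Rsad2 was -0.57 and that of Cmpk2 -0.69, and without set 3 that of Ifit1 was -0.83. Cmpk2 was also under 2-fold without sets 3, 5 or 6, Rsad2 without sets 2 or 3, and Ifit1 without sets 2 or 6. Set 6 is not in the main medians, and the values without it differ because members were chosen again. With the Dmp1-Cyba-Akr1c18 cluster left out, and set 3 thus not used, all 4 were under 2-fold, from -0.42 for Rsad2 to -0.68 for Ifit3.

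Of 14 genes of MHC class I presentation, 4 were called lower, against 0.415% of all genes, and 13 had medians below 0, with a list median of -0.60. Psmb8, a subunit of the immunoproteasome, was at 45.0 CPM in members and 109 CPM in the rest (-1.11). Psmb9, another, was at 14.3 CPM in members and 41.5 CPM in the rest (-1.36). Tap1, the peptide transporter, whose gene overlaps that of Psmb9 on the other strand, was at 13.6 CPM in members and 31.2 CPM in the rest (-1.17), and H2-Q7, a nonclassical class I molecule with close copies, at 11.7 CPM in members and 32.0 CPM in the rest (-1.06). Without set 4 Tap1 was at -0.50 and Psmb8 at -0.97, and Tap1 was also under 2-fold without sets 3 or 5. With the Dmp1-Cyba-Akr1c18 cluster left out, and set 3 thus not used, all 4 were under 2-fold, from -0.62 for H2-Q7 to -0.82 for Psmb9. The summed list was lower in members of sets 1 to 5 and higher in set 6, at 5192 CPM in members and 4518 CPM in the rest.

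Among 25 tested chemokine and cytokine genes, Cxcl10, Ccl2 and Ccl7 were called lower and Il1rn higher, with a list median of -0.14. Over all genes 0.415% were called lower and 0.578% higher. Il1rn, the interleukin-1 receptor antagonist, was at 43.1 CPM in members and 11.8 CPM in the rest (1.14).

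The matrix and adhesion lists had medians above 0 with few calls, though the SPARC list was below 0 under 1 of 21 alternatives and the fibrillar collagens under 3. Of 19 tested SPARC-family and matricellular genes, 3 were called higher (Thbs1, Fbln5 and Igfbp7), against 0.578% of all genes, none lower, and the list median was 0.18. Fbln5, an elastic fibre protein, was at 66.7 CPM in members and 30.6 CPM in the rest (1.11), and Igfbp7 at 363 CPM in members and 177 CPM in the rest (1.08). Fbln5 was under 2-fold without set 2 (0.83) or set 4 (0.98), and Igfbp7 without set 1 (0.76), set 2 (0.72) or set 5 (0.79). Spp1 (osteopontin) was at 9816 CPM in members and 6179 CPM in the rest, higher in all 6 sets with a median of 0.74, and was not called.

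Of 9 tested integrins, Itgb5 and Itga1, a collagen receptor subunit, were called higher, against 0.578% of all genes (list median 0.33). Itga1 was at 132 CPM in members and 64.4 CPM in the rest (1.07), or 0.97 without set 3. Of 16 matrix metalloproteinases, ADAMTS genes and inhibitors, Mmp10 and Mmp11 were called higher, against 0.578% of all genes (median 0.38). Mmp10, stromelysin-2, was at 30.2 CPM in members and 9.44 CPM in the rest (1.30), with a median of 0.42 without set 4 that ends its call. Timp3, an inhibitor of these enzymes, had a median of 1.11 but was lower in set 3 and so was not called. None of 17 fibrillar and network collagens and none of 12 laminin and basement membrane genes was called, with medians of 0.19 and 0.21. Col4a1, of basement membranes, was at 203 CPM in members and 107 CPM in the rest (0.87), higher in all 6 sets.

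In the families of the score genes 1 other gene was called besides those of the SPARC list. Of 11 tested ABC transporters, Abca1 was called higher, against 0.578% of all genes, and none lower (median -0.00). Abcb1b, which also exports drugs, was at 23.3 CPM in members and 37.7 CPM in the rest (-0.45). Of 4 tested membrane-spanning and FACIT collagens none was called (median 0.27). Of 7 tested SCUBE, MEGF and MAM-domain genes none was called (median 0.22). Of 18 heme and porphyrin genes none was called (median -0.04), and of 11 aryl hydrocarbon receptor and NRF2 targets none (0.10). Tiparp, a target of the aryl hydrocarbon receptor, was at 613 CPM in members and 405 CPM in the rest (0.55). Of 10 tested muscle progenitor genes none was called (0.25).

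The signaling lists held few calls, to be set beside 0.578% of all genes called higher and 0.415% called lower. Gas1, a cell-surface coreceptor of Hedgehog proteins, was the gene called among 6 tested Hedgehog genes (list median 0.24). Gas1 (chromosome 13, 60174405 to 60177365) was at 540, 568, 534, 586, 460 and 628 CPM in members of sets 1 to 6, against 270, 244, 167, 250, 239 and 290 CPM in the rest. The 2 ranges do not overlap, and the log2 fold ran from 0.93 to 1.65 over the 5 sets. Ptch1, a direct Hedgehog target, was at 17.7 CPM in members and 13.3 CPM in the rest (0.42), and Smo, the signal transducer, at 21.8 CPM in members and 15.6 CPM in the rest (0.29).

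Spry1, an inhibitor of receptor tyrosine kinase signaling, was called higher at 167 CPM in members and 49.3 CPM in the rest (1.34), and Btc, an EGF receptor ligand, was called lower at 3.03 CPM in members and 14.6 CPM in the rest (-1.16). These were the calls among 22 FGF, EGF and PDGF genes. Of 25 TGF-beta and BMP genes, Id4 was called higher, at 58.4 CPM in members and 20.8 CPM in the rest (1.08, or 0.87 without set 4), and Fst, which binds activin, was at 102 CPM in members and 190 CPM in the rest (-0.87). Sfrp1, a secreted Wnt inhibitor at 15.3 CPM in members and 5.69 CPM in the rest (1.14), was the call among 21 Wnt genes. None of 14 Notch genes was called (median -0.00).

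Of 17 tested progenitor-associated genes, Nt5e (the surface enzyme CD73) was called higher, against 0.578% of all genes. Nt5e was at 87.3 CPM in members and 47.3 CPM in the rest (1.03). Its median was 0.85, 0.71 and 0.89 without set 3, 4 or 5, which ends the call. Sox2, a factor of squamous progenitors, was at 131 CPM in members and 82.3 CPM in the rest (0.55), higher in all 6 sets. Myc was at 54.7 CPM in members and 87.0 CPM in the rest (-0.58). The list median was 0.03, close to the -0.00 of all genes.

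None of the genes tested was called in the lists of hypoxia and glycolysis (19 genes, median -0.18), heat shock (11, -0.16), unfolded protein response (15, -0.09), immediate-early genes (17, 0.08) and lipid synthesis (19, 0.13). Ero1l, a hypoxia-induced oxidase, was at 82.0 CPM in members and 140 CPM in the rest (-0.51), higher in 2 of 6 sets. Cyp51, of cholesterol synthesis, was at 74.0 CPM in members and 43.9 CPM in the rest (0.70).

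The levels of most leading genes shown here followed the number of score genes found. With each base cell thinned to 4000 UMIs, 6244 cells had no score gene, 1031 had 1, 197 had 2 and 83 had 3 or more. Thbs1 was at 1203, 2354, 4306 and 9108 CPM in these groups, in this order. Cp was at 353, 612, 1014 and 1747 CPM, and Slc4a4 at 16.8, 36.1, 90.1 and 199 CPM. Ccl2 went the other way, at 2537, 1715, 926 and 133 CPM. Gap43 was at 168, 112, 44.4 and 18.1 CPM, and Top2a at 167, 140, 91.4 and 36.1 CPM.

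Not all genes followed this order. Cyp26b1 was at 8.69, 31.3, 43.2 and 36.1 CPM, with overlapping intervals of the last 2 groups, and Crh was at 60.9 and 60.2 CPM with 2 genes and with 3 or more. Cxcl10 was at 260, 173, 40.6 and 54.2 CPM, and Ifit3 at 122, 78.8, 31.7 and 42.2 CPM. The bins were made from the same cells in which members were chosen. Members were 187 of the 197 cells with 2 score genes, all 83 with 3 or more, and 95 of the 6244 with none. The leading genes had been picked for their folds between members and the rest, so the order over the bins was largely set by that choice.

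**Figure D5:**
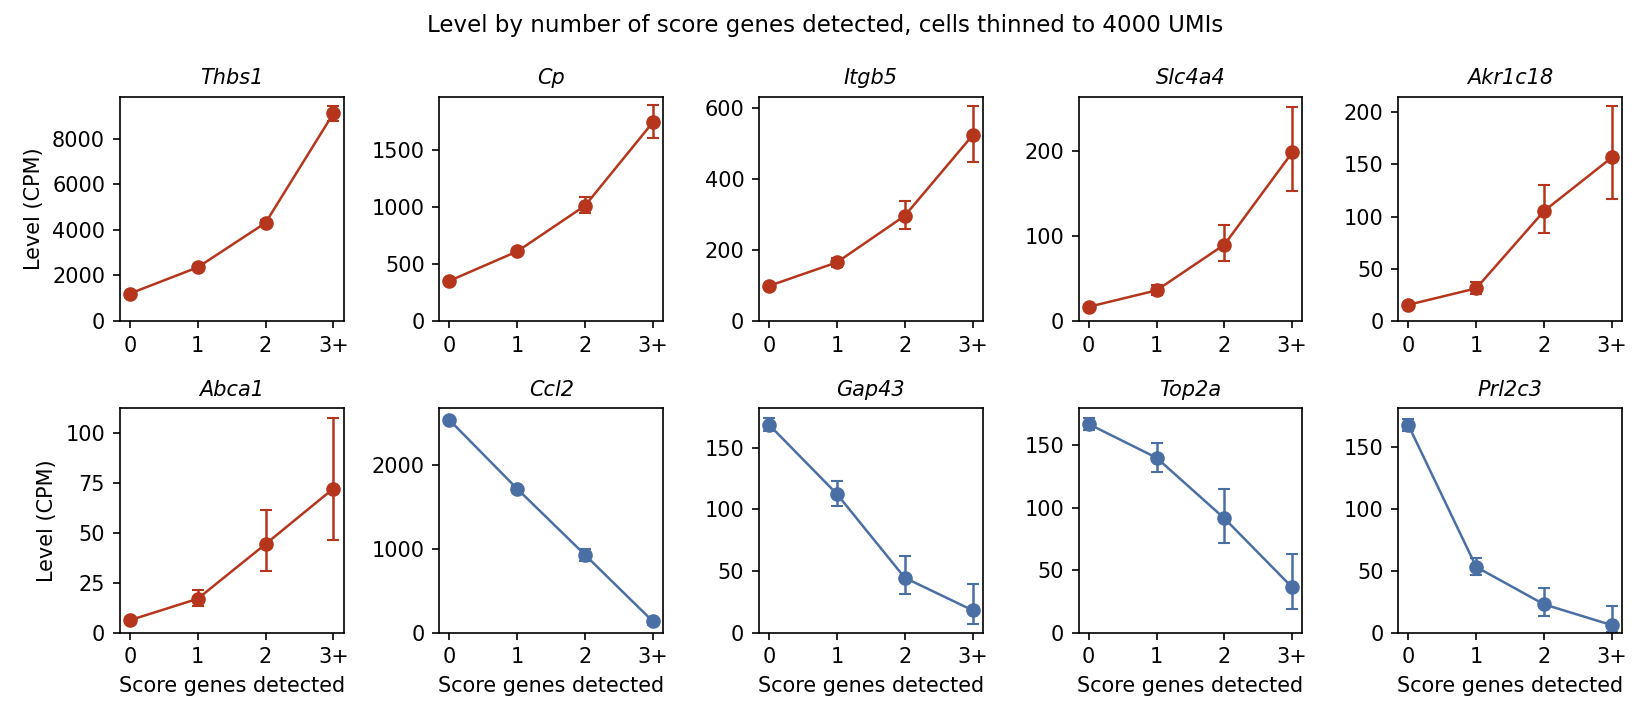
Level (CPM, exact 95% Poisson intervals) of 10 genes outside the rule by the number of score genes detected (0, 1, 2, 3 or more) in base cells thinned to 4000 UMIs. Thbs1 is at 9108 CPM with 3 or more score genes and 1203 CPM with none, and Ccl2 is at 133 CPM with 3 or more and 2537 CPM with none.

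The leading genes differed in how far they depended on the Dmp1-Cyba-Akr1c18 cluster. Thbs1 was at 5942 CPM in its members and 2803 CPM in members outside it. Akr1c18, Slc4a4 and Abca1 were at 197, 169 and 54.6 CPM in members of the cluster, against 46.3, 40.2 and 21.6 CPM in members outside it. Sulf2 and Crh were no higher in the cluster, at 59.8 and 39.2 CPM in its members, against 67.9 and 44.9 CPM in members outside it. Ccl2 was at 116 CPM in members of the cluster and 1480 CPM in members outside it, against 2582 CPM in the rest, and Top2a was at 17.8 CPM in members of the cluster and 152 CPM in members outside it, against 234 CPM in the rest. With the cluster left out, which also took set 3 out of use, the folds of Akr1c18 (0.75), Slc4a4 (0.96), Itgb5 (0.97) and Cxcr6 (0.93) were under 2-fold. Ccl2 and Top2a were lowest in the cluster, and also below the rest in the members outside it.

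Cells that the filter left out were compared with the members at the same score. Of 791 cells above the limit for Epcam, Krt7 and Cldn7, 53 (6.70%, 5.06 to 8.67%) reached the score of the lowest member. Of 272 cells with 5 or more matrix genes, 41 (15.1%, 11.04 to 19.9%) did. Smoc2 was at 242 CPM in members, 22.3 CPM in the epithelial cells and 72.1 CPM in the matrix-gene cells. Abcg2 was at 92.1, 11.2 and 11.8 CPM in the same groups. Cyp26b1 and Abca1 were not highest in members: the matrix-gene cells had 154 CPM of Cyp26b1, against 38.4 CPM in members, and 41.6 CPM of Abca1, against 30.8 CPM. In members of set 3 Cyp26b1 was at 153 CPM, against 11.8 to 37.7 CPM in members of the other sets. The matrix-gene cells had Xist at 339 CPM and Dcn at 2656 CPM, against 1158 and 501 CPM in members and 1112 and 66.2 CPM in the epithelial cells. Whether the matrix-gene cells are carcinoma cells was not tested. Cp was highest in members, at 847 CPM, against 157 CPM in the epithelial and 98.8 CPM in the matrix-gene cells.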

How the data were processed

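The authors deposited 1 matrix of raw UMI counts per gene and cell, with 32285 genes, 12 tags and 14818 cells, and no normalization. The build mm10 with Cell Ranger 7.1 and Seurat 4.1.0 stands in the series text, per the submitters' processing notes, while Cell Ranger 7.0.0 is named per the file headers. Totals per barcode set ran from 7354560 to 38798439 UMIs, and no barcode was shared between sets (0).

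No barcode set could be tied to a labelled tumor, so the planned test of treated against vehicle tumors was not run. No p-value was computed. Counts were summed per barcode set and group (numpy 2.4.6, scipy 1.17.1, pandas 2.3.3) and scaled to CPM, and genes of the score and filter were left out of the calls. Set 6 (17 members) was shown and not used for medians. UMI levels of different genes are not compared, since capture differs between genes. Clusters used scanpy 1.11.5 (2000 variable genes, 30 components, 15 neighbours) and leidenalg 0.10.2 at resolution 1. Doublets were scored per set with scrublet at an expected 6% and not removed. The fold step was tested on simulated counts. The list symbols Col21a1, Jedi, Mx1 and Mx2 had no match, and Aldoa and Ddit3, which name more than 1 gene ID, were left out. Gene positions are from GENCODE M21 by gene ID.

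The members, lists and alternatives were chosen with earlier results of these data known. Named genes are the score genes, the 15 called genes with the largest median in each direction, up to 4 per list with the largest median at 10 CPM or more, and Xist with the Y-linked genes. Genes outside this rule, such as Malat1, Dmp1, Ibsp, Cyba, Cdc20, Il1rn, Sfrp1, Mmp11 and all genes of the closing section, were chosen after their values were seen. Alternatives were other score cuts, pseudocounts, filters, scalings and left-out sets, cells and clusters.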

Additional observations from a re-analysis of the deposited data

How the results depend on the processing

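No paired analysis was possible because no barcode was tied to a labelled tumor, which concerns treated against vehicle tumors; members and the rest were compared within each barcode set. Against 64 genes called higher and 46 lower, a pseudocount of 1 CPM gave 106 and 144, the top 5% of cells 117 and 101, and the top 20% 37 and 8. The cut also changed which sets had enough members for use. Set 3 was not used for the top 5%, and set 6 came into use for the top 20%. Alternatives added after the data were seen included members with 3 or more score genes against cells with none, which gave 123 and 94 with set 3 not in use. Another left out the Dmp1-Cyba-Akr1c18 cluster, which also took set 3 out of use, and gave 16 lower genes. Leaving out 1 barcode set, with members chosen again, gave 40 to 86 higher and 31 to 87 lower. With 1 gene left out of the score there were 48 to 67 higher and 18 to 43 lower, with 18 for the score without Mamdc2. The lowest and highest share of members in a set were 2.74% and 13.5%. They were 0.644% and 7.28% for the top 5%, 8.21% and 28.4% for the top 20%, and 0.395% and 7.97% for 3 or more score genes. A cut within each set puts the lowest at 10.0% by construction. Leaving out 1 set gave 2.25 to 7.61%, the higher without set 6, and 12.9 to 16.1%. Of the 110 called genes 48 were followed over the alternatives, and 0 of these had the opposite sign in any. Of the 48, 15 were under 2-fold without 1 set and 21 without the cluster, where set 3 was not used. The medians of 9 lists changed sign, most often the progenitor list, in 12 of 21 alternatives, and the FGF, EGF and PDGF list, in 8. The ABC transporter and Notch lists, with medians of -0.00, were not counted for this. Their medians ranged from -0.11 to 0.07 and from -0.03 to 0.16 over the alternatives. With 17 and 21 members, sets 6 and 3 limit what low genes can show. The cause of these shifts was not tested.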

Other observations

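The following genes were picked after their values were seen. Dmp1, which leads the cluster richest in members, was at 115 CPM in members and 7.93 CPM in the rest, but only 55 members (7.28%) had a UMI, and 289 of 1028 UMIs lay in 1 cell of set 4. It was at 5.98, 59.8, 66.7, 274, 5.14 and 29.6 CPM in members of sets 1 to 6, against 7.15, 10.8, 0, 12.95, 3.897 and 1.67 CPM in the rest. Its neighbours of the same bone and tooth glycoprotein family on chromosome 5 were Ibsp, at 13.5 CPM in members and 1.04 CPM in the rest with UMIs in 13 members, Spp1, given above, and Mepe and Dspp, with no UMI in any base cell. Runx2, a factor of bone formation, was at 54.4 CPM in members and 59.2 CPM in the rest. Sp7, Alpl and Bglap, genes of osteoblasts, had no UMI in members and 9, 4 and 6 UMIs in the rest.

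Transcription factor genes among the 64 called higher included Maf (101 CPM in members and 39.9 CPM in the rest), Mef2c (92.6 and 40.7 CPM), Sox21 (67.9 and 26.6 CPM), Foxd1 (20.0 and 5.54 CPM) and Vdr (13.6 and 6.43 CPM). Secreted guidance and growth proteins among them were Slit3 (47.6 and 16.7 CPM), Angpt1 (57.6 and 22.1 CPM), Rspo3 (12.2 and 4.35 CPM) and Igf1 (20.9 and 4.14 CPM). Igf1 was at 4.85 CPM in members of the Dmp1-Cyba-Akr1c18 cluster and 27.0 CPM in members outside it.

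Skeletal muscle markers summed to 73.6 CPM in members and 3.36 CPM in the rest. Of 652 member UMIs of Acta1, Mylpf, Tnnt3 and Tnnc2, 622 lay in 1 cell of set 5 with 16837 UMIs and a score of 0.2805.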
